A study of Mus musculus with 4 samples.

Results

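Krt5, Krt14 and Krt15, the basal keratins, were followed in single mouse epidermal cells as 3 of the 24378 genes counted. They were chosen by name, each is 1 row in all 4 tables, and they were read in the 161 of 384 wells that held at least 2000 unique molecular identifiers (UMIs, each standing for 1 captured mRNA molecule) on genes. The cells came from dorsal interfollicular epidermis of female Ivl-CreERT2/R26-tdTomato mice at postnatal day 57, and all groups carried both alleles and had received tamoxifen at 10 µg per g of mouse 2 days earlier, by the sample labels. In these mice the Involucrin (Ivl) promoter drives the inducible Cre, so that cells with an active Ivl promoter turn on the red protein tdTomato. Live CD49f+/LY6A+/CD34− cells were sorted into traced cells (Tom+) and non-traced cells (Tom−), so both groups had passed the same basal-cell gate, and the gate itself used the products of Itga6 and Ly6a. Each group had 2 libraries, 1 under each of 2 run tags in the labels, with 35 and 58 cells (Tom+ runs 1 and 2) and 20 and 48 cells (Tom− runs 1 and 2). The sorted cells are described as coming from 2 mice, so the 4 libraries are not 4 animals. Which library came from which mouse is not given in the sources used here, and the tests below measure only the spread between these libraries, which may be technical.

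Keratins build the intermediate filaments of epithelial cells, and a filament needs a type I keratin paired with a type II keratin. In the basal layer of the epidermis, where cells divide and attach to the basement membrane, the main pair is keratin 5 (type II) with keratin 14 (type I), and keratin 15 is a further type I keratin of basal cells. When a cell commits to differentiation it turns on a different pair, keratin 1 (type II) with keratin 10 (type I). The paper reports that differentiation genes are turned on before typical stem cell genes are turned down. It found Krt14 still transcribed in cells with much mature Krt10 mRNA, in a set of cells published earlier and not in these libraries. Krt10 mRNA therefore served as the axis along which the basal keratins were read.

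The 4 genes lie in the 2 keratin clusters of the genome (GENCODE annotation of GRCm38, minus strand for each). Krt5 is at chr15:101707070-101712898, Krt14 at chr11:100203162-100207548, Krt15 at chr11:100131758-100135928 and Krt10 at chr11:99385254-99389364. Krt14 and Krt15 are 67233 bases apart. Because keratins are a multigene family, the transcripts were searched for stretches that could take reads from a relative. The longest stretch that Krt15 shares exactly with another gene (Krt25) is 59 bases long and lies in exon 1, in the coding sequence at the start of the rod domain. It is shown here, 5′ to 3′, beside its counterparts in exon 1 of Krt14 and of the axis gene Krt10, to show how alike the type I genes are there, and capitals mark bases that differ from Krt15 (4 of 59 in Krt14 and 5 of 59 in Krt10).
Krt15, chr11:100135515-100135573: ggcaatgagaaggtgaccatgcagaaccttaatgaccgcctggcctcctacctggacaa
Krt14, chr11:100207043-100207101: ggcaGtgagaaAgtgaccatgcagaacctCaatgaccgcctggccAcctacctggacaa
Krt10, chr11:99388878-99388936: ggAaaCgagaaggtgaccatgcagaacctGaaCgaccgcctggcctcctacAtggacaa

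The longest stretch that Krt14 shares exactly with another gene is 134 coding bases long, also in Krt16, and in Krt5 it is 140 bases long, also in Krt6a. Of the 30-base words in the transcripts, 13.4% of those of Krt5, 30.2% of those of Krt14 and 4.13% of those of Krt15 occur in a transcript of another gene. None of the shared words starts in the first 50 bases of any of the 3 transcripts, and the libraries captured 5′ ends. Reads from inside the transcripts could still have been split between relatives, most of all between Krt14 and Krt16 or Krt17, and the Krt14 values are uncertain to that extent. The relatives were scarce: 444 UMIs were counted for Krt16, 560 for Krt17 and 156 for Krt6a over all cells, against 7542 for Krt14, 8096 for Krt5 and 6959 for Krt15.

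The kept cells held 157281 and 305407 gene UMIs in the Tom+ libraries and 81630 and 184578 in the Tom− libraries, with medians of 3225 to 4525 per cell. To compare cells at 1 depth, each was thinned at random to 2000 UMIs, and "thinned UMIs" below are counts of 2000. A tag at the 5′ end is counted once per molecule whatever the length of the mRNA, so length does not weight levels of different genes set side by side. Capture and read assignment may still differ between genes and were not measured, so such comparisons are of counted UMIs. No cell column was shared between libraries. All 161 cells had at least 3 of 8 basal markers (the members, Itga6, Itgb4, Col17a1, Trp63 and Ly6a). Of these cells 145 had all 3 members and met this count by them alone, and Itga6 and Ly6a were part of the gate. The count is therefore no independent check of basal identity. UMIs of tdTomato were found in 16 of 35 and 29 of 58 Tom+ cells and in 0 of 20 and 3 of 48 Tom− cells. Markers of other cell types were rare, apart from those of the hair follicle infundibulum (7 of 7 listed genes detected), which summed to 0.877 and 3.58 UMIs per 2000 in the Tom+ libraries and to 2.28 and 2.25 in the Tom− libraries. Markers of the bulge and outer root sheath (5 of 7 detected, Cd34 and Lgr5 at 0) summed to 0.0890 to 0.515 per library, sebaceous markers (3 of 4) to 0.206 to 0.496, T cell markers (5 of 6) to 0 to 0.282 and Langerhans cell markers (4 of 5) to 0.0108 to 0.147. Melanocyte, fibroblast and endothelial markers summed to at most 0.0245 each. A total of 22 cells carried 3 or more markers of some non-basal type, 17 of them for the infundibulum. Without these 22 cells the Krt14 log2 fold change between the sorts was -0.75 (edgeR adjusted p = 0.151), and the Krt10 comparison is given without them beside its result.

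The 3 basal keratins were among the most abundant mRNAs in every library, ranking between 3 and 9 among the 8415 to 10828 genes detected. Krt5, the type II partner, took 22.04 and 18.8 of every 2000 UMIs in the Tom+ libraries and 24.3 and 27.2 in the Tom− libraries. Krt14, its type I partner, took 13.5 and 18.3 in Tom+ and 26.4 and 28.1 in Tom−. Krt15, the further type I keratin, took 19.2 and 15.1 in Tom+ and 20.7 and 24.9 in Tom−. For each gene both Tom+ libraries lay below both Tom− libraries, and the gap between the groups was widest for Krt14.

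Averaged over libraries, Tom− cells held Krt14 at 27.3 ± 1.20, Krt5 at 25.7 ± 2.04 and Krt15 at 22.8 ± 2.96 UMIs per 2000 (SD, n = 2). The ranges of neighbours in this order overlapped (mean ± SD), while within each Tom− library the order was the same. The order was not tested. In Tom+ cells the order was Krt5 at 20.4 ± 2.32, Krt15 at 17.2 ± 2.91 and Krt14 at 15.9 ± 3.41, and here too the ranges of neighbours overlapped (mean ± SD). Krt5 was the highest of the 3 within both Tom+ libraries. In Tom+ run 2 Krt14 lay above Krt15, so the last place of Krt14 in Tom+ rests on Tom+ run 1.

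Single Tom+ cells differed far more in Krt14 than in the other basal keratins. Among Tom+ cells Krt14 ranged from 0 to 109 thinned UMIs with a median of 2 (run 1) and from 0 to 70 with a median of 16 (run 2). Among Tom− cells it ranged from 0 to 62 with a median of 22 (run 1) and from 0 to 60 with a median of 26 (run 2). The upper ends of the ranges overlapped between the groups, and of the 29 cells without a thinned Krt14 UMI 13 were from Tom+ run 1 and 11 from Tom+ run 2.

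Where 4 values follow each other from here on, they are for Tom+ runs 1 and 2 and then Tom− runs 1 and 2. Krt5 had medians of 23, 23.5, 20 and 28.5 thinned UMIs, with a lowest cell at 0 to 3 and a highest cell at 46 to 53. Krt15 had medians of 15, 15, 16.5 and 24.5, with a lowest cell at 0 to 6 and a highest at 41 to 62. Their ranges overlapped almost fully between Tom+ and Tom− libraries. The variance of Krt14 over its mean was 42.1 in Tom+ run 1, 21.2 in Tom+ run 2 and 11.7 and 7.51 in the Tom− libraries, where counting alone gives about 1. For Krt5 it was 3.32 to 10.5 and for Krt15 4.88 to 11.6.

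**Figure D1:**
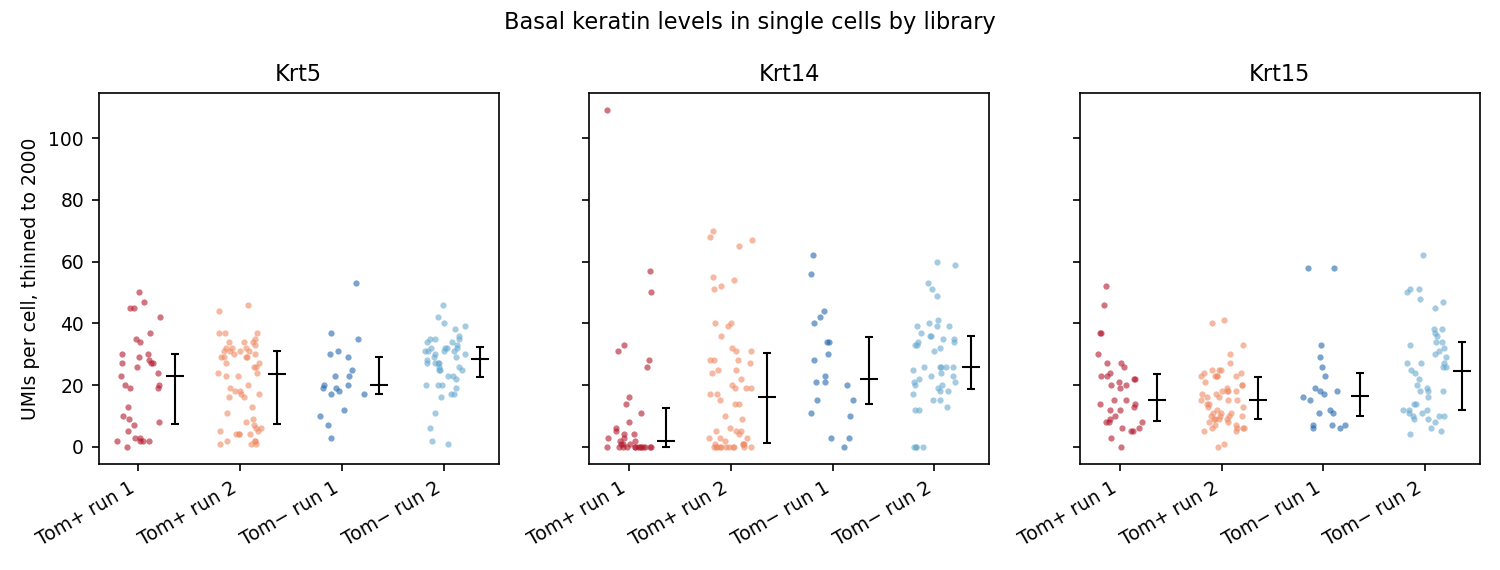
UMIs of Krt5, Krt14 and Krt15 per cell (y axis, counts of 2000 after thinning) in the 4 libraries (x axis). Each point is 1 cell, and the black mark and bar at the right of each cloud give the median and the quartiles. Krt14 has medians of 2 and 16 in the Tom+ libraries against 22 and 26 in the Tom− libraries, with many Tom+ cells at 0.

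Nearly every cell had at least 1 molecule of Krt5 and Krt15. After thinning, Krt5 was seen in 160 of 161 cells and Krt15 in 159. Krt14 was seen in 62.9% of Tom+ run 1 cells (22 of 35, 95% Clopper-Pearson interval 44.9 to 78.5%) and in 81.0% of Tom+ run 2 cells (47 of 58, 68.6 to 90.1%). In Tom− cells it was seen in 95% (19 of 20, 75.1 to 99.9%) and 91.7% (44 of 48, 80.0 to 97.7%). These intervals cover counting error only. At full depth Krt14 was seen in 24 of 35, 56 of 58, 19 of 20 and 46 of 48 cells, so 9 of the 11 Tom+ run 2 cells without it after thinning had at least 1 UMI.

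The first comparison asked whether traced cells carry less of the basal keratins than non-traced cells. On the log scale, mean ln(UMI + 1) in Tom+ minus Tom− libraries was -1.15 for Krt14, -0.356 for Krt5 and -0.268 for Krt15. After thinning, the share of cells with a Krt14 UMI differed by -21.4 percentage points, and by -12.3 without Tom+ run 1. At full depth it differed by -12.9, which rests on Tom+ run 1 (24 of 35 cells). Tom+ run 2 (56 of 58) did not lie below the Tom− libraries there (19 of 20 and 46 of 48). Without Tom+ run 1 the Krt14 value on the log scale was -0.736, and without Tom− run 2 the Krt15 value was -0.142. The exact two-sided permutation test over libraries gave p = 0.333 for each of the 3 levels, also after Benjamini-Hochberg adjustment over the 3 genes, and 0.333 is the smallest p that 2 against 2 libraries allow. Within run 1, the summed level in Tom+ was 0.512 times that in Tom− for Krt14, 0.908 times for Krt5 and 0.930 times for Krt15. Within run 2 these ratios were 0.652, 0.691 and 0.608. Krt14 was thus 48.8% and 34.8% below its Tom− level in runs 1 and 2, while Krt5 and Krt15 were 30.9% and 39.2% below it in run 2 and 9.24% and 7.02% below it in run 1.

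In the fit over all 3070 genes that passed the filter, on UMI counts summed per library, none of the 3 members passed the threshold (edgeR quasi-likelihood test, Benjamini-Hochberg adjusted p under 0.05). Of all genes 1.24% passed it, 0.391% as lower and 0.847% as higher in Tom+. The log2 fold change in Tom+ was -0.81 (SE 0.227, adjusted p = 0.0972) for Krt14, -0.45 (SE 0.224, adjusted p = 0.530) for Krt15 and -0.38 (SE 0.216, adjusted p = 0.634) for Krt5. Before adjustment, 1 of the 3 members, Krt14, fell under 0.05, as did 302 of the 3070 genes. With the run tag as a block edgeR called Krt14 (adjusted p = 2.45e-08) and Krt15 (adjusted p = 0.0160) but not Krt5 (adjusted p = 0.0604), and whether the libraries of 1 tag came from 1 mouse is not given. The DESeq2 Wald test called Krt14 alone (adjusted p = 0.0254), and limma-voom called none. Both Tom+ libraries lay below both Tom− libraries for all 3 members, as they did for 19.2% of the genes tested.

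The second comparison asked how each basal keratin is lost as Krt10 rises. Cells with at least 6 thinned Krt10 UMIs were called Krt10-positive, which is the smallest whole number past the cut-off of the study on the ln(UMI + 1) scale. They made up 25 of 35 and 37 of 58 Tom+ cells, and 3 of 20 and 3 of 48 Tom− cells. Krt10-positive cells therefore came mainly from Tom+ libraries, and both Tom− values for them rest on 3 cells each. Their median depth was 3606 to 4914 UMIs, and that of Krt10-negative cells was 3224 to 4426. The infundibulum markers summed to 2.64 UMIs per 2000 in Krt10-positive and 2.40 in Krt10-negative cells, and those of the bulge and outer root sheath to 0.122 and 0.514. The part of the latter in the results was not tested. Some of these markers also stand in gene lists used below. Postn of the bulge list is in the basal-layer list, and of the infundibulum list Cst6 is in the differentiation list and Krt17 is among the other keratins.

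Krt14 was lower in Krt10-positive cells of every library, of which 41 of 68 still had a thinned UMI of it. Its mean in Tom+ cells was 35.9 thinned UMIs when Krt10-negative against 2.24 when Krt10-positive (run 1), and 38.5 against 9.27 (run 2). For Tom− cells it was 29.4 against 4.33 (run 1), and 29.2 against 0 (run 2). The fall was thus 93.8%, 75.9%, 85.2% and 100% of the Krt10-negative level, with a mean of 88.7% ± 10.5 (SD, n = 4 libraries). The value of 0 rests on 3 cells with 2 Krt14 UMIs at full depth, and with the 3 counts that a count of 0 allows, the fall there was at least 96.6%.

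Krt5 fell by a smaller percent than Krt14 in each library and stayed well above 0 in Krt10-positive cells. Its means in the 4 libraries were 34.6, 29.1, 24.4 and 27.6 thinned UMIs in Krt10-negative cells and 16.2, 16, 11 and 18 in Krt10-positive cells. The fall was 53.3%, 45.0%, 54.9% and 34.8%, with a mean of 47.0% ± 9.21. Over 20 other thinning seeds this mean ran from 44.4% to 61.8%, with an average of 54.6%. The 4 Krt10-positive means all lay below the 4 Krt10-negative means.

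Krt15 showed no common direction. Its means were 24, 17.9, 18.2 and 24.6 thinned UMIs in Krt10-negative cells and 15.96, 14.5, 29.3 and 29.3 in Krt10-positive cells, so that Krt10-positive cells had less of it in both Tom+ libraries and more of it in both Tom− libraries. The percent fall was 33.5% and 18.7% in Tom+ libraries and -61.4% and -19.1% in Tom− libraries, where a negative value stands for a higher level in Krt10-positive cells. The 3 Krt10-positive cells of Tom− run 1 had 12, 18 and 58 thinned UMIs of Krt15, so the higher mean there rests on 1 cell. Those of Tom− run 2 had 16, 34 and 38.

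The lower totals of the basal pair in Tom+ libraries were not seen among Krt10-negative cells. In these cells Krt14 averaged 35.9 and 38.5 thinned UMIs in Tom+ and 29.4 and 29.2 in Tom− libraries, and Krt5 averaged 34.6 and 29.1 against 24.4 and 27.6. For both genes the 2 Tom+ values lay above the 2 Tom− values, which was not tested. Krt15 averaged 24 and 17.9 against 18.2 and 24.6, and its ranges overlapped.

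**Figure D2:**
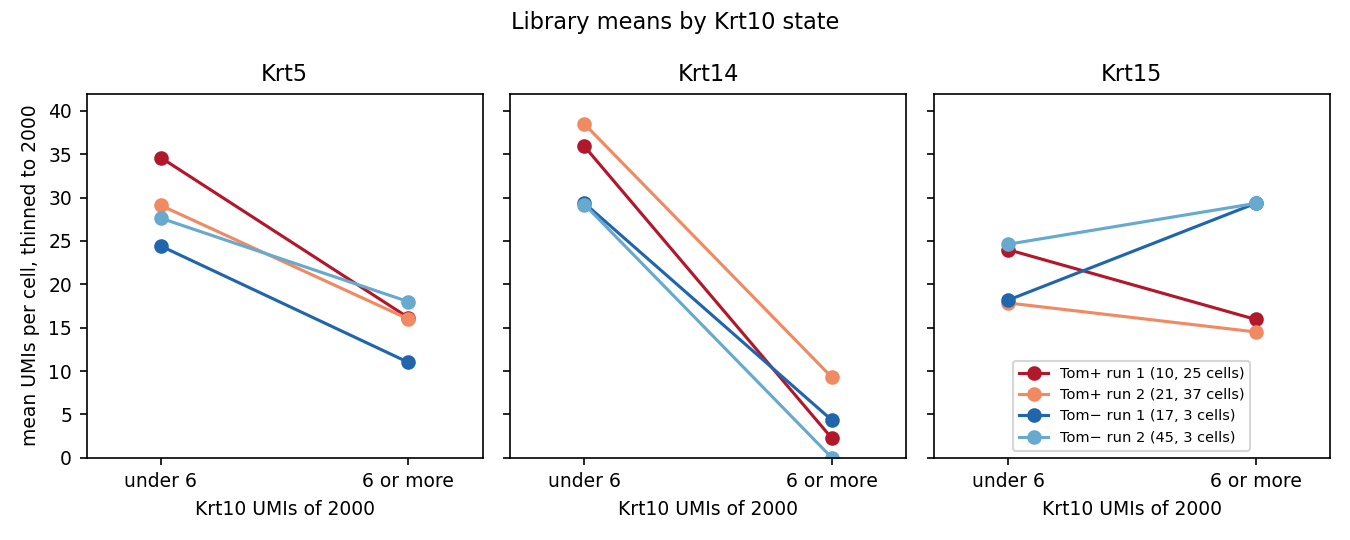
Mean UMIs per cell (y axis, counts of 2000 after thinning) of Krt5, Krt14 and Krt15 in cells with under 6 and with 6 or more Krt10 UMIs (x axis), 1 line per library, with the number of cells of each state in the legend. Krt14 drops to between 0 and 9.27 and Krt5 to between 11 and 18, while the Krt15 lines slope down in both Tom+ libraries and up in both Tom− libraries.

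On the ln(UMI + 1) scale, the Krt10-positive level minus the Krt10-negative level was -2.42 ± 0.603 for Krt14, -0.956 ± 0.121 for Krt5 and 0.0757 ± 0.337 for Krt15 (mean and SD over the 4 within-library differences). The exact two-sided sign-flip permutation test gave p = 0.125 for Krt14 and for Krt5 (adjusted over the 3 genes, 0.188) and p = 0.625 for Krt15, whose mean turned to -0.0424 without Tom− run 1. With 4 libraries 0.125 is the smallest p this test allows. The difference between members was tested in the same way. The change of Krt14 minus that of Krt5 was -1.46 ± 0.658, that of Krt15 minus that of Krt14 was 2.49 ± 0.771, and that of Krt15 minus that of Krt5 was 1.03 ± 0.309. All 4 libraries showed each of these 3 differences in the same direction, with p = 0.125 by the exact permutation test. Over 20 other thinning seeds the difference of Krt15 minus Krt5 ran from 1.09 to 1.41, above the value given here. The change of Krt5 ran from -1.29 to -0.956 with an average of -1.11, and that of Krt15 from 0.0644 to 0.260 with an average of 0.164.

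In the fit over all genes on counts summed per library and Krt10 state, with library as a block, Krt14 and Krt5 passed the threshold and Krt15 did not. That is 2 of 3 members, against 7.46% of the 1206 genes tested (3.57% lower and 3.9% higher). Krt14 had a log2 fold change of -3.36 (SE 0.401, edgeR adjusted p = 5.15e-05), a level 10.3-fold lower in Krt10-positive cells, and only 1 of the 1206 genes had a lower value. Krt5 had -1.16 (SE 0.145, adjusted p = 7.10e-05), a level 2.23-fold lower. Krt15 had -0.03 (SE 0.166, adjusted p = 0.948). In the sums, Krt14 and Krt5 were lower in Krt10-positive cells of all 4 libraries, as 16.4% of genes were. Without the 22 cells that had markers of another type the values were -3.27, -1.09 and -0.02.

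These sums weight each cell by its depth, and this mattered for Krt15. In CPM (counts scaled to a fixed library total) of the sums, Krt15 had 11106, 8578, 9610 and 13272 in Krt10-negative cells and 8934, 7129, 14154 and 12714 in Krt10-positive cells. The Krt10-positive value of Tom− run 2 was thus the higher one in the mean over cells and the lower one in the sum. The test of whether the change with Krt10 state differed between the sorts gave a log2 difference of -0.54 for Krt15 (SE 0.275, edgeR adjusted p = 0.891, unadjusted p = 0.0762), -0.05 for Krt5 (adjusted p = 0.990) and 0.16 for Krt14 (adjusted p = 0.990). With edgeR 0 of the 1206 genes (0%) passed the threshold in this test, with DESeq2 and limma-voom also 0, and 58 genes (4.81%) had an unadjusted p under 0.05 with edgeR.

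Thinning and library scaling make each gene a share of all mRNA, and Krt10-positive cells spend part of that on Krt1 and Krt10. Each well also held ERCC spike-ins, artificial RNAs added in a fixed amount, and counts per 100 ERCC UMIs do not share that total. On this scale the fall in Krt10-positive cells was 96.6%, 73.3%, 71.4% and 98.9% for Krt14 and 65.6%, 42.5%, 27.9% and 36.3% for Krt5. For Krt15 it was 35.6%, -8.24%, -124% and -34.8%, so that Krt15 was lower in Krt10-positive cells of 1 of 4 libraries on this scale.

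Levels were also read along classes of Krt10. Cells without a thinned Krt10 UMI had library means of 26.3 to 36.4 for Krt5, 29.6 to 45.5 for Krt14 and 13.0 to 24.7 for Krt15. Cells with 1 to 5 Krt10 UMIs had 22.3 to 28.9, 22.5 to 37.7 and 18.4 to 24.5. Cells with 6 to 20 had 15 to 18, 0 to 11.3 and 15.03 to 38. The ranges over libraries at 1 to 5 Krt10 UMIs thus overlapped those of cells without it. Within each library, though, the Krt14 mean was lower at 1 to 5, at 23.5, 37.7, 22.5 and 27.5 against 39, 45.5, 35.4 and 29.6. The Krt5 mean was lower too, at 27.5, 28.9, 22.3 and 27.3 against 36.4, 30.5, 26.3 and 27.7, while Krt15 showed no common direction. The class of 1 to 5 in Tom+ run 1 and that of 0 in Tom+ run 2 held 2 cells each, and this step was not tested. Medians of Krt5 were higher at 1 to 5 in both run 2 libraries (31 against 30.5 in Tom+, 31.5 against 28 in Tom−) and lower in both run 1 libraries. In Tom− run 2, 1 of the 8 cells at 1 to 5 had 2 UMIs of Krt5 and 0 of Krt14. Per 100 ERCC UMIs the Krt14 median of that library was higher at 1 to 5 (89.0 against 41.6), and it was lower in the others. In the class of 6 to 20 the ranges of Krt5 and Krt14 lay below those of the lower classes and the Krt15 ranges overlapped.

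In the class of over 20 Krt10 UMIs, which held 14 cells of 3 libraries, Krt5 averaged 11.4 in Tom+ run 1 (5 cells) and 12.3 in Tom+ run 2 (8 cells), Krt14 averaged 1 and 2, and Krt15 averaged 19.6 and 12.6. The single such cell of Tom− run 1 had 3 UMIs of Krt5, 3 of Krt14 and 12 of Krt15. Krt15 had the highest mean of the 3 members in each of the 3 libraries there. In all 14 cells Krt5 and Krt15 were present, while 6 lacked Krt14.

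**Figure D3:**
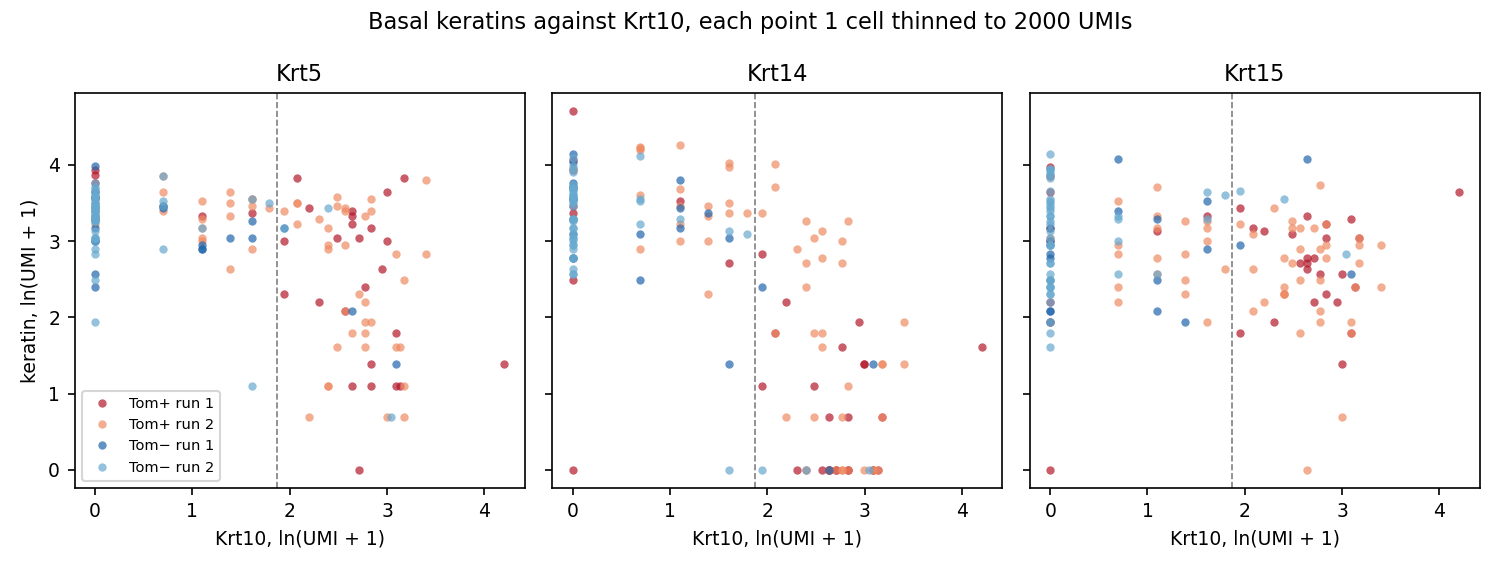
Krt5, Krt14 and Krt15 (y axes, ln(UMI + 1)) against Krt10 (x axis, ln(UMI + 1)) in each of the 161 cells thinned to 2000 UMIs, coloured by library. The dashed line marks the border between 5 and 6 Krt10 UMIs. To its right Krt14 is at 0 in 27 of 68 cells, Krt5 in 1 and Krt15 in 1.

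Single cells were then sorted by which members were low. Taking 5 thinned UMIs or fewer as low, Krt14 was low in 53 of the 161 cells, Krt5 in 23 and Krt15 in 10. Krt14 was low while Krt5 was not in 31 cells, both were low in 22, and Krt5 was low while Krt14 was not in 1 cell, which belonged to Tom+ run 2. In cells with Krt14 low and Krt5 not, Krt10 had a median of 13 UMIs and 29 of the 31 were Krt10-positive. In cells with both low, the median of Krt10 was 17.5 and 21 of the 22 were Krt10-positive.

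Of the 107 cells in which neither was low, 17 were Krt10-positive and the median of Krt10 was 0. Krt15 kept a median of 18 UMIs in these cells, 15 where Krt14 alone of the pair was low and 12.5 where both were low. Only 3 cells were low in all 3 basal keratins. All 4 libraries had cells in these 3 classes, with 2 from each Tom− library where Krt14 alone of the pair was low, and 1 and 2 where both were low.

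Among the 68 Krt10-positive cells, 27 had no thinned Krt14 UMI, and 25 of these still had both Krt5 and Krt15. Among the 93 Krt10-negative cells, 2 had no Krt14 UMI. The most abundant of the 3 members was Krt14 in 51 of the 93 Krt10-negative cells, Krt15 in 21 and Krt5 in 15, with ties in 6. In Krt10-positive cells it was Krt15 in 31, Krt5 in 29 and Krt14 in 6, with ties in 2.

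The ratio of the filament partners Krt5 and Krt14 was read per cell as the Krt5 share of their summed UMIs at full depth, in the 147 cells with at least 10 such UMIs (14 cells had fewer). In Tom− libraries the median share was 48.4% and 48.2%, close to equal numbers of UMIs. In Tom+ run 1 it was 81.2% and in Tom+ run 2 it was 54.9%. The mean difference was 19.8 percentage points, 6.65 without Tom+ run 1 and 7.76 for the share in the summed UMIs of each library. The exact permutation test over libraries gave p = 0.333, the smallest it allows.

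Within libraries the share differed between the Krt10 states. In Krt10-negative cells the median was 50.3%, 42.7%, 44.1% and 47.6%. In Krt10-positive cells it was 95.2%, 67.2%, 65.8% and 99.1%, the Tom− values resting on 3 and 2 cells. The Krt10-negative medians of the 2 sorts overlapped, and in each library the Krt10-positive median was the higher one. In 22 cells Krt5 made up over 90% of the pair, of which 13 were from Tom+ run 1 and 6 from Tom+ run 2.

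Summed over cells, the number of Krt5 UMIs per Krt14 UMI was 0.952, 0.749, 0.85 and 0.931 in Krt10-negative cells and 9.42, 1.59, 2.10 and 45 in Krt10-positive cells. The value of 45 rests on 90 Krt5 and 2 Krt14 UMIs and has an exact 95% counting interval of 12.1 to 377. The difference of the log2 ratio between the states, with 0.5 added to each sum, was 2.74 ± 1.96 (SD, n = 4), in the same direction in 4 of 4 libraries, with p = 0.125 by the exact sign-flip permutation test. It was 0.967 when 1 Krt10 UMI and 1.48 when 3 were enough to call a cell Krt10-positive, and 1.45 in cells with at least 5000 gene UMIs.

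The balance varied among cells of 1 state more than counting alone gives in 7 of the 8 sets of cells. Among Krt10-negative cells the SD of the share was 20.3, 11.8, 13.9 and 9.17 percentage points, where binomial counting of the same UMIs gives 4.31, 4.50, 5.49 and 5.48. In Tom− run 2, the library with the most such cells, 37 of 44 had a share between 40 and 60%. Among Krt10-positive cells the SD was 17.8, 21.7, 22.2 and 1.29 (the last over 2 cells), against counting SDs of 5.13, 8.40, 11.01 and 1.63.

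**Figure D4:**
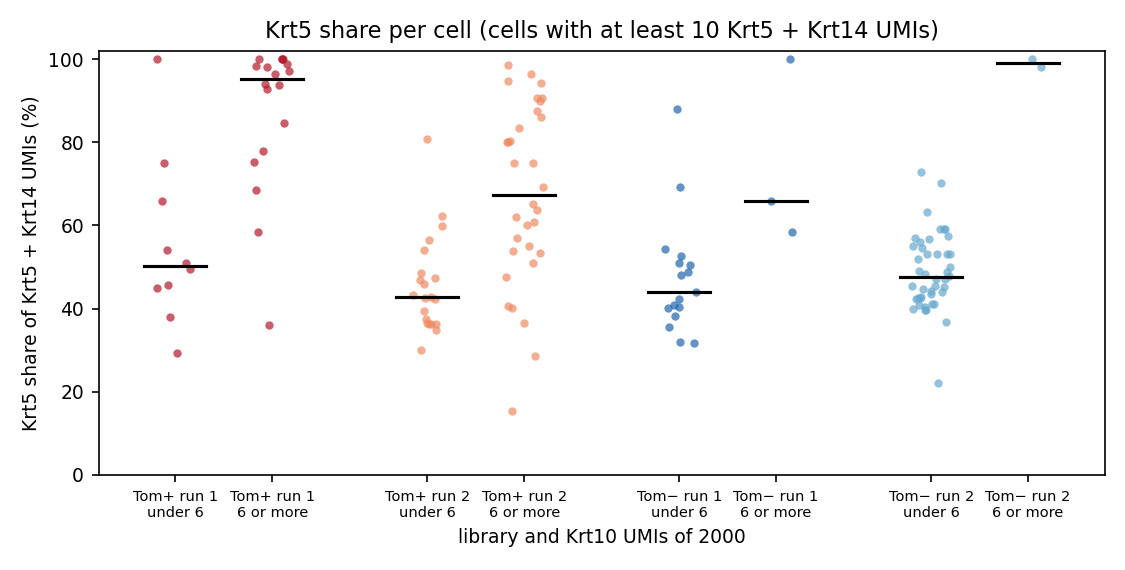
Krt5 share of Krt5 + Krt14 UMIs (y axis, percent) in each cell with at least 10 such UMIs at full depth, by library and Krt10 state (x axis, Krt10 UMIs of 2000). Black lines are medians: 42.7 to 50.3% in cells with under 6 Krt10 UMIs and 65.8 to 99.1% in cells with 6 or more.

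The keratin pool as a whole was then divided by gene. All 52 keratin rows together made up 4.14 to 5.07% of UMIs in Krt10-negative cells and 3.12 to 3.72% in Krt10-positive cells. The 3 basal members were 89.5 to 95.2% of keratin UMIs in Krt10-negative cells and 54.8 to 70.1% in Krt10-positive cells. The basal members thus remained the larger part of keratin mRNA in both states.

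Within the type II keratins, Krt5 was 90.04 to 96.5% of UMIs in Krt10-negative cells and 58.9 to 65.2% in Krt10-positive cells, where Krt1 was 26.3 to 33.8%. Within the type I keratins, Krt14 was 52.04 to 62.5% in Krt10-negative and 0.766 to 21.5% in Krt10-positive cells, and Krt15 was 26.7 to 42.5% and 35.5 to 67.8%. Krt10, which defined the cells, was 24.7 to 44.8% of type I UMIs in them. Krt15 therefore had the most UMIs of the type I keratins in Krt10-positive cells of each library, ahead of Krt10, by the full-depth sums. In mean thinned UMIs per cell Krt10 lay above Krt15 in Tom+ run 1 (16.4 against 15.96) and level with it in Tom+ run 2 (14.46 against 14.51). The number of type I UMIs per type II UMI stayed between 1.44 and 2.13 in both states of all 4 libraries.

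**Figure D5:**
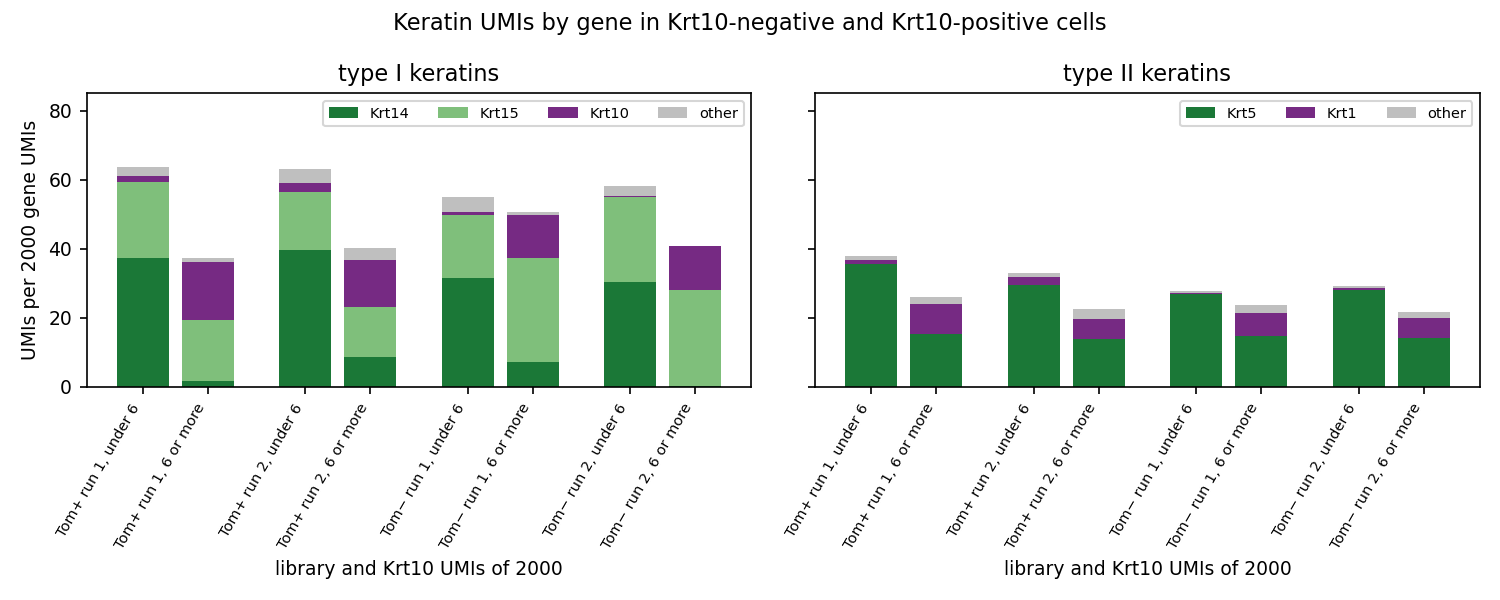
UMIs of type I keratins (left) and type II keratins (right) per 2000 gene UMIs (y axis), stacked by gene, in cells with under 6 and with 6 or more Krt10 UMIs of each library (x axis). In Krt10-positive cells Krt14 shrinks to at most 21.5% of type I UMIs while Krt15 makes up at least 35.5%, and Krt5 remains at 58.9% or more of type II UMIs.

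Lists of related genes were counted in the same fits. Of the 49 other keratins 7 were tested. In Krt10-positive cells 4 rose, namely Krt10, which chose the cells, its partner Krt1 (log2 fold change 2.75), and the suprabasal type II keratins Krt77 (2.46) and Krt78 (4.43). None fell, and values for Krt16, Krt17 and Krt6a were -0.97, -1.34 and -0.77 (edgeR adjusted p = 0.137, 0.0925 and 0.269). All 7 had an unadjusted p under 0.05, and DESeq2 called 1 of them lower. The median over the 7 was 2.46, against -0.09 over all genes tested. Between Tom+ and Tom− libraries, 3 of the 7 rose (Krt10, Krt1 and Krt77) and none fell.

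Of 17 partners that anchor the keratin network, 12 were tested against Krt10 state, of which 3 rose and 1 fell. Col17a1, the hemidesmosomal collagen that ties basal keratin to the basement membrane, fell (log2 fold change -1.31, SE 0.187, edgeR adjusted p = 0.000181). Dsp (1.20) and Evpl (2.55), which tie keratin to desmosomes and the cornified envelope, and the desmosomal cadherin Dsc3 (0.88) rose. The other hemidesmosome genes had values of -0.96 for Itga6, -1.01 for Itgb4 and -0.53 for Plec and did not pass. The median over the 12 was 0.18. Between Tom+ and Tom− libraries 0 of 14 partners tested passed in edgeR, DESeq2 or limma-voom, with values from -1.61 to 0.70, and 6 had an unadjusted edgeR p under 0.05.

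Of 15 listed regulators 10 were tested against Krt10 state and 0 passed in edgeR, DESeq2 or limma-voom, with values from -0.37 to 1.10 and a median of 0.22. The unadjusted edgeR p was under 0.05 for 1 of them. Trp63, which encodes the p63 factor known to drive Krt5 and Krt14, had 0.28 (SE 0.284, edgeR adjusted p = 0.685). This is a value of mRNA, and a part of p63 in the levels of Krt5 and Krt14 was not tested. Between the sorts Trp63 had -1.15 (SE 0.314, adjusted p = 0.0894), and 0 of 13 tested regulators passed in any of the 3 tools (3 at an unadjusted p under 0.05).

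Of 19 further basal-layer genes 10 were tested against Krt10 state, of which 5 fell and none rose, with a median of -1.41. Of all genes tested 3.57% fell. The 5 were Thbs1 (-2.42), the laminin subunit Lamb3 (-2.36), the cell cycle gene Ccnd2 (-1.88), the chemokine Cxcl14 (-1.81) and the metallothionein Mt2 (-1.21). The 10 values ran from -2.42 to -0.10, with Krt5 at -1.16 inside that range and Krt14 at -3.36 below it. Of 16 differentiation genes 9 were tested and all 9 rose, with a median of 2.66, where 3.9% of all genes tested rose. The 6 largest values were those of Krtdap (5.40), Mt4 (3.91), Ly6g6c (3.48), Sbsn (3.28), Calm4 (2.66) and Ptgs1 (2.13). Krt10, which split the cells, is itself turned on in differentiation, and the lists were chosen with earlier results of these data known. The count of 9 is therefore no independent result. Between the sorts 1 of 15 basal-layer genes fell (Thbs1, -1.88), where 0.391% of all genes tested fell. There 8 of 12 differentiation genes rose, where 0.847% of all genes tested rose. They were led by Skint5 (3.71), Ly6g6c (3.67), Krtdap (2.95), Sbsn (2.77), Calm4 (2.28) and Ptgs1 (2.15).

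Across cells within a library, the correlation of Krt5 with Krt14 was higher than that of either with Krt15. The Spearman correlation of thinned counts of Krt5 and Krt14 was 0.582, 0.704, 0.470 and 0.562. For Krt5 and Krt15 it was 0.187, 0.271, -0.0650 and 0.445, and for Krt14 and Krt15 it was -0.0116, 0.191, -0.568 and 0.0133. Among Krt10-negative cells alone (10, 21, 17 and 45 cells) Krt14 and Krt15 gave -0.879, -0.449, -0.571 and 0.0748. There Krt5 and Krt14 gave 0.176, 0.490, 0.349 and 0.549, and Krt5 and Krt15 gave -0.0122, -0.385, -0.00185 and 0.475. All these are descriptions over 10 to 58 cells that share a library and a fixed total of 2000.

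Ranked among the 535 genes with a mean of at least 0.5 thinned UMIs, by the mean correlation over the 4 libraries, Krt14 was the gene most like Krt5 (0.58), followed by Ifitm3 (0.42) and S100a6 (0.38). Those most like Krt14 were Ifitm3 (0.58), Krt5 (0.58) and S100a6 (0.55), so the pair shared the same 2 further genes. At the other end were Sbsn (-0.42) and Krtdap (-0.40) for Krt5, and Krtdap (-0.60) and Krt10 (-0.57) for Krt14. For Krt15 the highest were Snord104 (0.35), Gm13826 (0.31) and Gm6654 (0.30) and the lowest Hnrnpu (-0.30) and Gsn (-0.29). Some of these means hide a wide spread over libraries. With Krt15, Snord104 ran from 0.0382 to 0.596, Hnrnpu from -0.764 to -0.0924 and Gsn from -0.428 to -0.0224. With Krt5, Sbsn ran from -0.623 to 0.00199. The highest values for Krt15 were weak, and its correlation with Krt10 was -0.185, -0.176, 0.256 and 0.128 in the 4 libraries.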

How the data were processed

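The authors captured sorted cells on Fluidigm C1 chips of 96 wells, made 5′-end (STRT) libraries and deposited whole-number UMI counts per gene and well, not normalized, with 92 ERCC rows in the same tables. The submitters' processing notes name the builds mm10 and GRCm38. The aligner and the annotation are not given in the sources used here. The labels give tamoxifen at 10 µg per g and day 57, and the paper's methods give other values. Members and gene lists were chosen with earlier results of these data known.

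From the counts, wells with at least 2000 gene UMIs were kept, and each was thinned once (seed 1) to 2000. Doublets were not called. Library values were compared by exact permutation, and Krt10 states by exact sign flips of within-library differences. Intervals are at 95%. Sums were tested with edgeR 4.0.16 in R 4.3.3 (TMM, filterByExpr, threshold 0.05), with DESeq2 1.42.0, limma-voom (limma 3.58.1), other cell filters, Krt10 cut-offs and left-out libraries as alternatives. The tests were checked on simulated data. Sequences and positions are from GENCODE M21 transcripts. Named genes are the members, Krt10, those of each list past the threshold (at most 6, by size) and, for likeness, the 3 highest and 2 lowest. The values named for Krt16, Krt17, Krt6a, Itga6, Itgb4, Plec and Trp63 fall outside this rule and were chosen after they had been seen. The replicate check is in the closing section.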

Additional observations from a re-analysis of the deposited data

Results flagged for a closer look

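The mean ln(UMI + 1) of Krt15 was lower in Krt10-positive cells of both Tom+ libraries (-0.14 and -0.28) and higher in both Tom− libraries (0.43 and 0.29), so that the Tom+ mean minus the Tom− mean was -0.566, and the percent fall of the mean UMIs differed by 66.4 percentage points. The Tom− values rest on 3 cells each, which had 12, 18 and 58 thinned UMIs of Krt15 in run 1. The difference was not tested on this scale. On summed counts the interaction of Krt10 state and sort gave a log2 value of -0.54 for Krt15 (edgeR adjusted p = 0.891), and in Tom− run 2 the Krt10-positive value was the lower one there. The Krt10 state itself did not pass for Krt15 (adjusted p = 0.948), and per 100 ERCC UMIs the mean was higher in Krt10-positive cells of Tom+ run 2 also (a percent fall of -8.24).

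Wells with 1 to 1999 gene UMIs, 54 in all, were not used as cells, and they also held the 3 members. Per 2000 gene UMIs of these wells there were 17.4 of Krt5, 16.7 of Krt14 and 15.7 of Krt15. In the 11 such wells of Tom+ run 1 the values were 13.7, 2.29 and 10.7, and in the 22 of Tom− run 2 they were 17.7, 21.3 and 17.2.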

How the results depend on the processing

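The fall of Krt5 and Krt14 in Krt10-positive cells kept its direction and its call in all 30 alternative values of the edgeR test, from -1.55 to -0.74 for Krt5 and from -4.21 to -2.19 for Krt14 on the log2 scale. With 20 other thinning seeds Krt5 ran from -1.60 to -0.99 and Krt14 from -4.14 to -2.65, past the threshold in 20 of 20. Krt15 passed in 0 of 20. Of 372 alternative values in all, 337 kept direction and side of the threshold (or a count within 1.5 times). The exact tests over 4 libraries cannot pass 0.05 and say nothing about stability. The cause of the changes below was not tested.

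For Tom+ against Tom−, 26 genes were higher and 12 lower, 8 and 1 with at least 5000 gene UMIs per cell, and 16 to 40 and 4 to 26 with 1 library left out (40 and 26 without Tom− run 1, 16 higher without Tom− run 2 or Tom+ run 2, 4 lower without Tom+ run 1). Krt14 passed with the DESeq2 Wald test (-0.80, adjusted p = 0.0254). The share of cells with Krt5 turned to 4.17 points with at least 5000 gene UMIs.

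Each run tag in the labels holds 1 Tom+ and 1 Tom− library, the sources do not say whether it marks 1 mouse, and with 2 pairs the deviations of same-numbered libraries correlated at r = 0.136 over 3070 genes. With the replicate number as a block, edgeR called 63 genes higher and 53 lower, Krt14 at -0.83 (adjusted p = 2.45e-08), Krt15 at -0.45 (adjusted p = 0.0160) and not Krt5 (-0.38, adjusted p = 0.0604). For Krt10 state, the replicate block in place of library gave 48 genes higher and 50 lower.

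For Krt10 state, 47 genes were higher and 43 lower, and the lower count was 22 at a cut-off of 3 Krt10 UMIs, 22 with no filter on low counts and 24 to 42 with 1 library left out (24 without Tom+ run 1). Krt15, not called in any of these, changed sign from -0.03 to 0.12 at the cut-off of 3, 0.0041 with DESeq2 size factors, 0.0078 with the DESeq2 Wald test and -0.25 to 0.16 with 1 library left out. Its mean ln change ran from -0.0424 to 0.193 and its percent fall from -20.6 to 11.03 with 1 library left out.

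The interaction with sort, called for no member, changed sign for Krt5 to 0.79 at 10 Krt10 UMIs, 0.57 with no filter, 0.14 without cells of other types and -0.16 to 0.15 with 1 library left out. For Krt14 it changed to -1.33 at 3 Krt10 UMIs, -0.0085 with limma-voom, -0.076 without cells of other types and -0.98 to 3.65 with 1 library left out, and for Krt15 to 0.081 with no filter. Leaving out cells of other types and rescaling to ERCC were chosen after seeing the data. Depth limits the calls of missing Krt14: of the 29 cells without a thinned UMI, 13 had at least 1 at full depth.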
